A study of Mus musculus with 8 samples.

Results

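The genes described here are 5 pairs of glycolytic isozymes in adult mouse testis, each made of a germ cell isozyme and its widely expressed partner: Gapdhs with Gapdh, Pgk2 with Pgk1, Ldhc with Ldha, Aldoart1 with Aldoa, and Eno4 with Eno1. The 10 genes were chosen by name, and their Ensembl identifiers picked 11 of the 56748 rows of a table of raw counts, because 2 identifiers carry the name Aldoa. RNA sequencing had been done on adult testis in 8 libraries, 4 labelled Ak9-/- and 4 labelled WT, and all 8 are used. Ak9 codes for an adenylate kinase, and the series asks how its loss affects sperm motility in mice and cattle. The labels give neither the kind of Ak9 allele, nor the strain, the exact age or any pooling. They do not tie libraries to separate mice either, so the p-values reflect the spread among these 8 libraries, part of which may be technical.

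Glycolysis splits glucose into pyruvate and yields ATP without mitochondria. Aldolase cuts fructose bisphosphate into triose phosphates, glyceraldehyde-3-phosphate dehydrogenase and phosphoglycerate kinase carry these forward and make the first ATP of the pathway, enolase makes phosphoenolpyruvate, and lactate dehydrogenase turns pyruvate into lactate and restores NAD. Male germ cells replace several of these enzymes with their own isozymes during and after meiosis, and in mouse sperm part of the pathway is bound to the fibrous sheath of the tail, where it serves motility. Pgk2 and Aldoart1 are retrogenes, copies made from the messenger RNA of Pgk1 and Aldoa. Pgk1 is X-linked, and the X chromosome is silenced in spermatocytes.

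How far the members of a pair differ in sequence sets whether short reads can tell them apart, so the first 60 coding bases of both retrogenes and of their source genes are shown, with the bases that differ between partners in capitals. They were read from GENCODE M21 transcripts on GRCm38, and lie at chr17:40208476-40208535 (minus strand) for Pgk2, chrX:106187251-106187310 (plus) for Pgk1, chr4:72852510-72852569 (minus) for Aldoart1 and chr7:126798055-126798114 (minus) for Aldoa.
Pgk2: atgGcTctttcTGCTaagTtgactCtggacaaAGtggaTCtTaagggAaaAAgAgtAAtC
Pgk1: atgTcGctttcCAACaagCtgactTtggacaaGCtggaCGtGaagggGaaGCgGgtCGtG
Aldoart1: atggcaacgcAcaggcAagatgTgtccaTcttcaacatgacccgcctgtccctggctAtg
Aldoa: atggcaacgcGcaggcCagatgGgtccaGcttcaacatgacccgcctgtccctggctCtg
Pgk2 and Pgk1 differed at 20 of these 60 bases, and Aldoart1 and Aldoa at 5. Over the aligned coding sequence, identity within a pair was 93.9% for Aldoart1 and Aldoa, 79.3% for Pgk2 and Pgk1, 73.2% for Ldhc and Ldha, and 68.6% for Gapdhs and Gapdh. Gapdhs had 244 coding bases ahead of the part that aligned to Gapdh, with the longest coding sequence of each gene (1320 and 1077 bases). Gapdhs has an amino-terminal extension thought to tie the enzyme to the fibrous sheath. The 244 bases depend on the Gapdh transcript chosen and do not measure the length of that extension. Eno4 (1857 coding bases) and Eno1 (1302) gave no nucleotide alignment, so the enolase pair is a pair by enzyme activity rather than by close sequence. Windows of 50 bases shared by both partners occurred in the aldolase pair, with 94, and numbered 0 in each of the other 4 pairs.

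The start regions of 3 members are shown next as a description. A link between their letters and the levels in any library was not tested. They are RefSeq sequences on GRCm38.p6, from 250 bases before the start of transcription to 50 after it: chr17:40208560-40208859 (minus strand) for Pgk2, chrX:106186850-106187149 (plus) for Pgk1 and chr7:46861013-46861312 (plus) for Ldhc. Capitals mark matches on either strand to 3 motifs. The GC box was searched with the letters GGGCGG, and the motif called CCAAT box here with the letters of its name. The core of the cAMP response element was searched with the letters TGACG.
Pgk2: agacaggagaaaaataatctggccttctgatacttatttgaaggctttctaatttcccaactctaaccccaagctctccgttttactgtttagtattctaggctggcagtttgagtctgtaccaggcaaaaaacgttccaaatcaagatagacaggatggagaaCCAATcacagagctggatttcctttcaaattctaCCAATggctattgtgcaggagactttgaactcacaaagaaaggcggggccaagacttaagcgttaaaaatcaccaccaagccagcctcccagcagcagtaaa
Pgk1: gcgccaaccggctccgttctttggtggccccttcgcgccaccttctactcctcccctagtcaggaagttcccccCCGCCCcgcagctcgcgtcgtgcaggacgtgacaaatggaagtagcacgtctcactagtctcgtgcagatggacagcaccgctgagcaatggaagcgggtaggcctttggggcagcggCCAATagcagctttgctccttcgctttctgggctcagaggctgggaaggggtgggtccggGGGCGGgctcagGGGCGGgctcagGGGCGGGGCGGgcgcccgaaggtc
Ldhc: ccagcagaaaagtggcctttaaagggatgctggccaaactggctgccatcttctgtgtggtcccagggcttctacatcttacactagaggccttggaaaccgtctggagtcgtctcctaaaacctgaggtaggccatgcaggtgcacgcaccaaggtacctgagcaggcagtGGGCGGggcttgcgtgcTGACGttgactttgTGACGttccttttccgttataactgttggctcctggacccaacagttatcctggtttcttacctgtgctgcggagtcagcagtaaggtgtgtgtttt
The Pgk2 region held 2 CCAAT boxes, starting at positions -86 and -52 from the start of transcription, and no GC box. The Pgk1 region held 5 GC boxes, some of them overlapping, and 1 CCAAT box, and its GC content was 66.7%, against 43.0% for Pgk2 and a median of 52.7% over all promoters. The Ldhc region held 1 GC box and 2 cores of the cAMP response element, at positions -61 and -47. Among all 32851 RefSeq promoters of the same length, 35.7% held a GC box, 37.4% a CCAAT box and 20.8% the core of the cAMP response element on either strand, so each of these motifs is common. The full element, TGACGTCA, contains that core on both strands and was in 1.79% of promoters and in 1 of the 9 members that the table covers, Ldha. TATAAA, held by 13.6% of promoters on either strand, was in 0 of those 9. The table lists 16 start regions for these 9 members. Matches are a description of the letters and not evidence of bound factors.

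Library totals ran from 18062780 to 24415587 counts. Ak9 was measured at 69.3, 116, 101 and 40.6 CPM (counts relative to the library's total, scaled with TMM) in the libraries labelled knockout, numbered 1 to 4, against 108, 115, 122 and 107 CPM in the wild types. Ak9 RNA thus did not follow the labels in every library, and each direction below compares the libraries by their labels only. Labelled knockout 3 stood apart from the other 3. Its round spermatid markers summed to 969 CPM, against 1886 to 2028 in the other labelled knockouts and 1428 to 1661 in wild types, and its Sertoli markers to 2858 CPM, against 1548 to 2080 in the other labelled knockouts and 1997 to 2238 in wild types. Each of the 14 round spermatid and 15 Sertoli markers was above 0 in every library. Markers of the epididymis, of which 2 of 11 passed the filter on low counts, summed to 219 CPM in labelled knockout 3, to 6.36 to 38.0 in the other labelled knockouts and to 7.45 to 9.73 in wild types. The score given for this list, a mean log2 CPM minus the wild-type mean, was -0.75 in labelled knockout 3. That score was -0.26 to -0.24 in the other labelled knockouts and -0.22 to 0.18 in wild types. With only 2 of 11 markers past the filter, it does not show that the list as a whole was lower in labelled knockout 3. Of the 11 markers 2, Gpx5 and Cst11, were at 0 in labelled knockout 3, fewer than in any other library. Markers at 0 numbered 7, 5 and 5 in labelled knockouts 1, 2 and 4, and 3 to 6 in wild types. Gpx5 was also at 0 in labelled knockouts 2 and 4 and in wild types 1 and 3.

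No isozyme passed the test of a difference between the groups. Of the 10 members 0 passed edgeR's quasi-likelihood test at an adjusted p of 0.05, where 4 of 21805 genes did (0.0183%). Members with an unadjusted p under 0.05 in edgeR's test also numbered 0, where 662 of 21805 genes had one (3.04%). DESeq2 called 0 members and 46 of 21777 genes with an adjusted p (0.211%), and limma-voom 0 members and 4 of 21805 genes (0.0183%). At such shares a count of 0 among 10 genes does not set the members apart. Log2 fold changes, labelled knockout over wild type, lay between -0.14 (Pgk1, SE 0.11) and 0.09 (Ldha, SE 0.15), with an edgeR adjusted p of 1.00 for each. The groups overlapped for all 10 members, where 2.30% of tested genes had groups that did not overlap. The germ cell isozymes had a median log2 fold change of 0.07, their partners of -0.01, and all tested genes of 0.01. The libraries labelled knockout were more spread than the wild types, a difference given here as values and not tested. The SD of log2 CPM across labelled knockouts ran from 0.36 (Ldhc) to 0.59 (Pgk2) for the germ cell isozymes, against 0.04 (Eno4) to 0.10 (Aldoart1) across wild types. For the widely expressed isozymes it ran from 0.15 (Aldoa) to 0.28 (Ldha) across labelled knockouts. Across wild types it ran from 0.03 (Pgk1) to 0.10 (Aldoa) for them. The median over all tested genes was 0.30 across labelled knockouts and 0.13 across wild types. Over tested genes with a mean of at least 10 CPM, as all members had, it was 0.25 and 0.09.

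**Figure D1:**
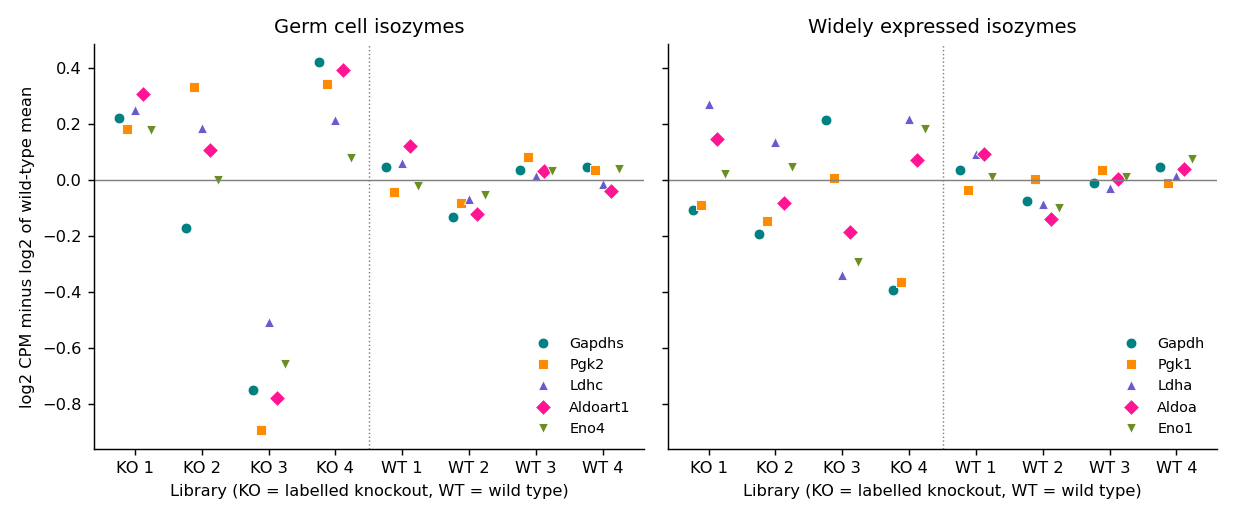
Log2 CPM of each isozyme minus the log2 of its wild-type mean, by library, with germ cell isozymes at left and widely expressed isozymes at right; each point is 1 library. All 5 germ cell isozymes lie lowest in labelled knockout 3 (median -0.75), and so do Ldha (-0.34), Eno1 (-0.29) and Aldoa (-0.19). Gapdh is at 0.22 and Pgk1 at 0.01 there.

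The 5 germ cell isozymes were all lowest in labelled knockout 3, but did not run alike in every library. In labelled knockout 3 they stood at 53.8% (Pgk2), 58.2% (Aldoart1), 59.4% (Gapdhs), 63.4% (Eno4) and 70.4% (Ldhc) of their wild-type means. In labelled knockout 4 they stood at 106% (Eno4) to 134% (Gapdhs), and in labelled knockout 1 at 113% to 124%. In labelled knockout 2 they parted: Gapdhs stood at 88.7%, below all wild types, and Pgk2 at 126%, above all of them, with Ldhc at 114% and Aldoart1 at 108%. The Pearson correlation of log2 CPM between any pair of them over the 8 libraries lay between 0.86 and 0.98, and between 0.41 and 0.91 without labelled knockout 3. These are descriptions over 8 points that share libraries and scaling. Round and elongating spermatid markers moved with them: the round spermatid score (mean log2 CPM of its 14 genes minus the wild-type mean) was 0.36, 0.27, -0.74 and 0.26 in labelled knockouts 1 to 4, and the elongating spermatid score was 0.39, 0.09, -0.82 and 0.47. Wild types lay between -0.15 and 0.08 for round and between -0.15 and 0.14 for elongating spermatids. The spermatocyte score lay between 0.01 and 0.09 in labelled knockouts and between -0.06 and 0.07 in wild types. The part of cell content in the isozyme levels was not tested, and in whole testis fewer cells of a type and less RNA per cell cannot be told apart.

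**Figure D2:**
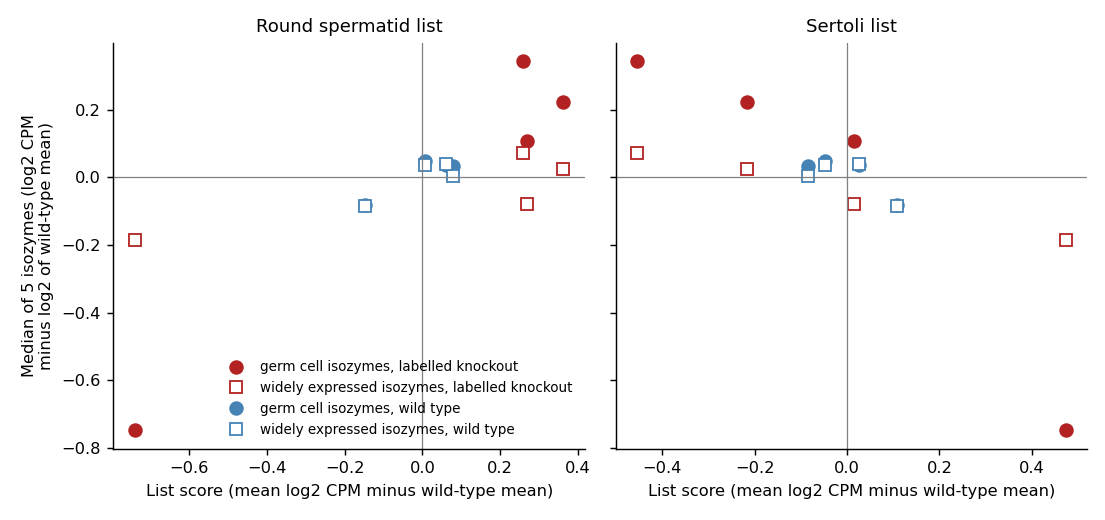
Median log2 CPM of the 5 germ cell isozymes and of the 5 widely expressed isozymes, minus the log2 wild-type mean (y axis), against the marker list score of the same library (x axis), for round spermatid and Sertoli markers; each point is 1 library. Labelled knockout 3, with a round spermatid score of -0.74 and a Sertoli score of 0.47, has the lowest germ cell isozyme median at -0.75.

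The ratio of counts within a pair needs no scaling between libraries, and it was compared by a two-sided exact permutation test of the log2 ratio, for which 4 against 4 libraries allow a smallest p of 0.0286. No ratio passed, and each difference lay within the spread between libraries. The differences in mean log2 ratio, labelled knockout minus wild type, were 0.05 (SE 0.38) for Gapdhs over Gapdh, 0.14 (SE 0.36) for Pgk2 over Pgk1, -0.04 (SE 0.05) for Ldhc over Ldha, 0.02 (SE 0.21) for Aldoart1 over Aldoa and -0.09 (SE 0.11) for Eno4 over Eno1. The exact permutation p-values were 0.914, 0.8, 0.629, 1 and 0.514 in that order, and each was 1 after Benjamini-Hochberg adjustment over the 5 ratios. Every ratio was lowest in labelled knockout 3. Without that library the differences were 0.39, 0.49, 0.01, 0.22 and 0.00 in the same order, with exact permutation p-values of 0.114, 0.0571, 0.8, 0.0571 and 1, where 0.0571 is the smallest that 3 against 4 libraries allow. All 5 differences thus moved by more than the wild-type SD of the log2 ratio, which ran from 0.04 to 0.06 over the pairs, when that library was left out.

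**Figure D3:**
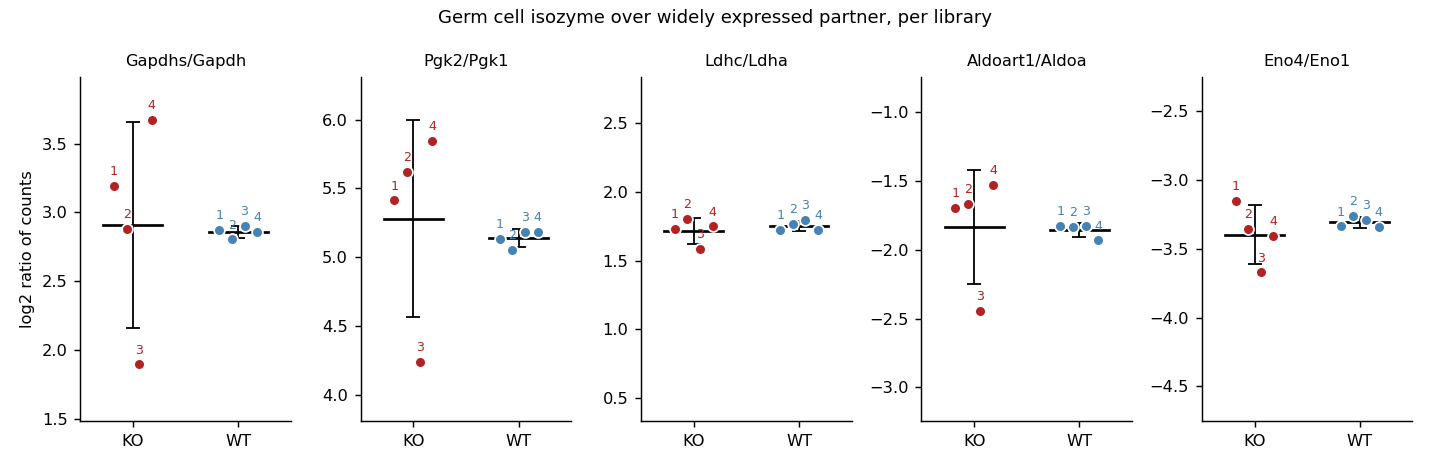
Log2 ratio of counts, germ cell isozyme over widely expressed partner, for each pair; points are libraries with their replicate number, horizontal bars group means and error bars SD (n = 4). Labelled knockout 3 is lowest in each pair, and the wild types lie close together, with SDs from 0.04 to 0.06.

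Gapdhs, the glyceraldehyde-3-phosphate dehydrogenase of sperm, which mouse sperm need for motility, lies on chromosome 7 and Gapdh on chromosome 6. Gapdhs had 1184, 900, 603 and 1357 CPM in labelled knockouts 1 to 4, against 1048, 926, 1039 and 1047 CPM in wild types. Gapdh had 130, 122, 162 and 106 CPM in labelled knockouts, against 143, 133, 139 and 144 CPM in wild types. Labelled knockouts 1 and 4 were above all wild types for Gapdhs and labelled knockouts 2 and 3 below them, whereas Gapdh was highest in labelled knockout 3 and lowest in labelled knockout 4. Gapdhs counts were 9.13, 7.35, 3.72 and 12.7 times those of Gapdh in labelled knockouts, against 7.31, 6.98, 7.48 and 7.25 times in wild types. Over the 8 libraries the partners had a Pearson r of -0.73 and a Spearman rho of -0.43, with r at -0.51 without labelled knockout 3. Among labelled knockouts the library with the least Gapdhs had the most Gapdh and the reverse, whereas among wild types both genes were lowest in wild type 2. The share of the pair's counts from Gapdhs was 90.1%, 88.0%, 78.8% and 92.7% in labelled knockouts, against 87.5% to 88.2% in wild types. The exact 95% binomial intervals of these shares were at most 1.29 percentage points wide and cover counting error only, so labelled knockout 3 lay below, and labelled knockouts 1 and 4 above, the wild types by more than counting error.

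Pgk2, a phosphoglycerate kinase of meiotic and later germ cells, is a single-exon gene on chromosome 17. It had 1052, 1166, 499 and 1175 CPM in labelled knockouts 1 to 4, against 900, 875, 981 and 950 CPM in wild types. Labelled knockouts 1, 2 and 4 were above all wild types and labelled knockout 3 below them, the widest swing of the 10 members. Pgk1 had 24.7, 23.7, 26.4 and 20.4 CPM in labelled knockouts, against 25.6, 26.4, 26.9 and 26.1 CPM in wild types. Labelled knockouts 1, 2 and 4 were below all wild types for Pgk1. Its log2 fold change of -0.14 (SE 0.11) had the smallest unadjusted p of the members, at 0.219 in edgeR's test. Pgk2 counts were 42.6, 49.1, 18.9 and 57.6 times those of Pgk1 in labelled knockouts, against 35.2, 33.2, 36.4 and 36.4 times in wild types. The ratio was above all wild types in 3 labelled knockouts and below them in labelled knockout 3. Over the 8 libraries the partners had an r of -0.54 and a rho of -0.74, and without labelled knockout 3 an r of -0.80. Among wild types both genes were highest in wild type 3.

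Ldhc, the lactate dehydrogenase of male germ cells, and Ldha, the subunit common in muscle and in many cultured cells, both lie on chromosome 7. Ldhc was the most abundant member, with 3968, 3791, 2346 and 3866 CPM in labelled knockouts, against 3480, 3178, 3370 and 3300 CPM in wild types. Ldha had 1193, 1087, 783 and 1150 CPM in labelled knockouts, against 1055, 933, 971 and 1000 CPM in wild types. For both genes labelled knockouts 1, 2 and 4 were above all wild types and labelled knockout 3 below them. Ldhc counts were 3.33, 3.49, 3.00 and 3.36 times those of Ldha in labelled knockouts, against 3.30, 3.41, 3.47 and 3.30 times in wild types. This was the steadiest ratio, with an SD of its log2 of 0.09 across labelled knockouts and 0.04 across wild types. Ldha followed Ldhc with an r of 0.98 and a rho of 0.98 over the 8 libraries, and an r of 0.97 without labelled knockout 3. With the 5 germ cell isozymes in turn, Ldha had an r of 0.88 to 0.98, Eno1 of 0.87 to 0.92 and Aldoa of 0.62 to 0.84, whereas Pgk1 had an r of -0.59 to -0.33 and Gapdh of -0.82 to -0.65. Without labelled knockout 3 the ranges were 0.65 to 0.97 for Ldha, 0.46 to 0.73 for Eno1, 0.17 to 0.75 for Aldoa, -0.80 to -0.34 for Pgk1 and -0.81 to -0.29 for Gapdh.

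Aldoart1, a retrogene aldolase found in the sperm fibrous sheath of mice, is a single-exon gene on chromosome 4. It had 133, 116, 62.6 and 141 CPM in labelled knockouts, against 117, 98.8, 110 and 104 CPM in wild types. Aldoa, the aldolase of muscle and most other tissues, had 430, 367, 341 and 407 CPM in labelled knockouts, against 414, 352, 389 and 399 CPM in wild types. Aldoart1 was above all wild types in labelled knockouts 1 and 4 and below them in labelled knockout 3, and for Aldoa labelled knockout 1 was the highest library and labelled knockout 3 the lowest. Aldoart1 counts were 0.309, 0.315, 0.184 and 0.346 times those of Aldoa in labelled knockouts, against 0.282, 0.281, 0.282 and 0.262 times in wild types. The ratio was above all wild types in labelled knockouts 1, 2 and 4. The partners had an r of 0.80 and a rho of 0.83 over the 8 libraries, and an r of 0.69 without labelled knockout 3. The other identifier named Aldoa averaged 15.8 ± 1.21 CPM in labelled knockouts and 15.4 ± 0.826 CPM in wild types (SD, n = 4 each).

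Eno4, an enolase-related protein that mouse sperm need for normal motility, lies on chromosome 19, and Eno1, the enolase of most tissues, on chromosome 4. Eno4 had 53.6, 47.3, 30.0 and 49.97 CPM in labelled knockouts, against 46.7, 45.6, 48.3 and 48.6 CPM in wild types. Eno1 had 476, 483, 382 and 531 CPM in labelled knockouts, against 471, 437, 472 and 493 CPM in wild types. Both genes were lowest in labelled knockout 3. Eno4 was above all wild types in labelled knockouts 1 and 4, and Eno1 in labelled knockout 4. Eno4 counts were 0.113, 0.0979, 0.0785 and 0.0942 times those of Eno1 in labelled knockouts, against 0.0990, 0.104, 0.102 and 0.0986 times in wild types. The partners had an r of 0.87 and a rho of 0.81 over the 8 libraries, and an r of 0.46 without labelled knockout 3.

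The order of levels was set per kilobase of 1 coding transcript a gene, since counts grow with length. Ldhc led in wild types with 2432 ± 92.3 CPM per kilobase (SD, n = 4), followed by Gapdhs (697 ± 40.8), Pgk2 (570 ± 29.4), Ldha (545 ± 28.3), Aldoa (251 ± 16.9), Eno1 (231 ± 11.4), Gapdh (110 ± 4.18), Aldoart1 (52.4 ± 3.74), Eno4 (18.4 ± 0.550) and Pgk1 (14.4 ± 0.305). Ranges of neighbours overlapped for Pgk2 and Ldha and for Aldoa and Eno1, whose order is therefore not resolved. In labelled knockouts the means were 2549 ± 560 for Ldhc, 694 ± 227 for Gapdhs, 598 ± 197 for Pgk2, 580 ± 102 for Ldha and 13.0 ± 1.38 for Pgk1. Per kilobase, the germ cell isozyme exceeded its partner in 3 pairs in every library, at 3.25 to 11.1 times in labelled knockouts and 6.10 to 6.54 times in wild types for Gapdhs, 21.2 to 64.6 and 37.3 to 40.9 times for Pgk2, and 3.97 to 4.62 and 4.37 to 4.60 times for Ldhc. Aldoart1 was at 0.139 to 0.261 times Aldoa in labelled knockouts and 0.198 to 0.213 times in wild types, and Eno4 at 0.0620 to 0.0889 times Eno1 in labelled knockouts and 0.0779 to 0.0824 times in wild types.

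That order leans on how the counting treated reads that match several places, which the sources used here do not give. Of the windows of 50 bases in the coding transcript, 90.4% for Gapdh, 72.2% for Eno1 and 68.0% for Pgk1 also occurred in another annotated gene. The share was 16.6% for Ldha and 13.5% for Aldoa. Among the germ cell isozymes it was 5.8% for Aldoart1, 4.6% for Eno4, 4.5% for Gapdhs and 0 for Pgk2 and Ldhc. Near-identical copies (at least 95% identity over 80% of the shorter length) numbered 73 for Gapdh, 4 for Pgk1, 3 for Eno1, 2 for Ldha and 0 for Aldoa. If only reads from unshared windows had been counted, the level per 1000 such windows in wild types would put Gapdh at 1195 ± 45.5 CPM and Gapdhs at 755 ± 44.2 CPM (SD, n = 4 each). The Gapdhs over Gapdh ratio on that scale was 0.717 ± 0.327 in labelled knockouts and 0.632 ± 0.0182 in wild types, with both means below 1 but labelled knockout 4 at 1.11, while Pgk2 over Pgk1 was still 15.2 ± 5.99 and 12.7 ± 0.547. Which member of the Gapdh pair is the more abundant was thus not resolved by these counts. Comparisons of the same gene between libraries are not touched by its length or by a fixed share of lost reads. Whether that share was the same in every library was not tested.

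**Figure D4:**
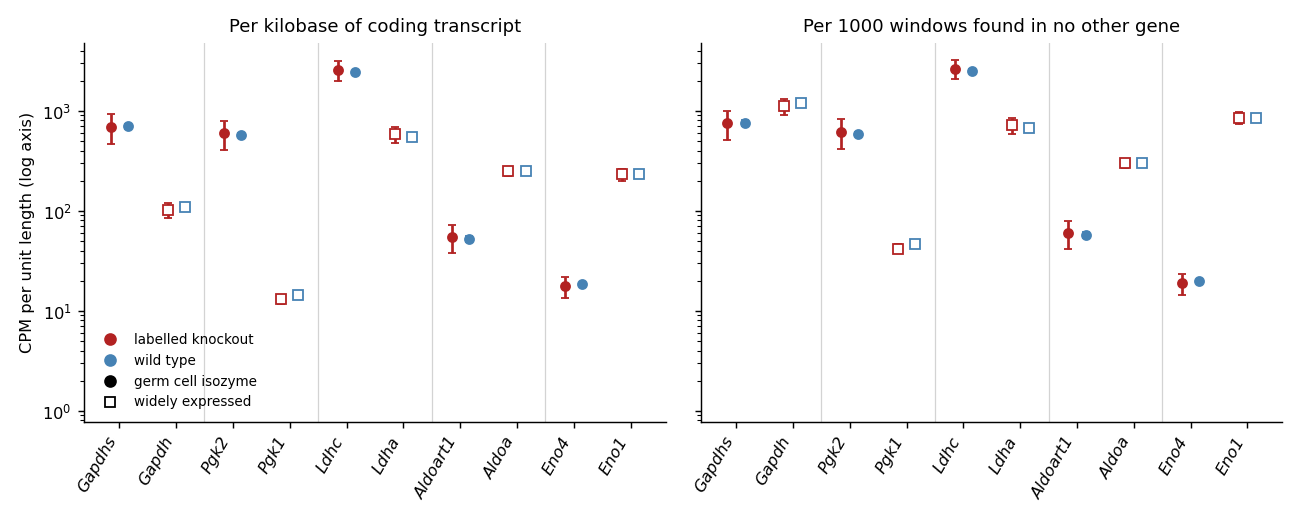
Mean CPM per kilobase of coding transcript (left) and per 1000 windows of 50 bases found in no other gene (right) on log axes, with SD as error bars (n = 4 libraries a group), for the 5 pairs side by side. Gapdh lies below Gapdhs at left (110 against 697 in wild types) and above it at right (1195 against 755).

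The copies of Gapdh and of Eno1 held counts of their own. Counts in the 73 copies of Gapdh came to 19.0%, 20.1%, 9.88% and 21.4% of the Gapdh counts in labelled knockouts 1 to 4. In wild types they came to 14.6% to 17.9%. With these copies added to Gapdh, the difference in the Gapdhs over Gapdh log2 ratio was 0.04 (exact permutation p = 0.971). Eno1b, which is 99.5% identical to Eno1, had 1365, 600, 290 and 564 counts in labelled knockouts, against 473, 532, 628 and 520 in wild types. The processed pseudogene Gm4735 had 653, 159, 87 and 138 counts in labelled knockouts, against 121, 137, 172 and 123 in wild types. Labelled knockout 1 was the highest library for both. Counts in the 3 copies came to 19.2% of the Eno1 counts in labelled knockout 1, to 4.92% to 7.74% in the other labelled knockouts and to 6.56% to 6.97% in wild types. Eno1 itself, at 476 CPM in labelled knockout 1, was inside the wild-type range of 437 to 493 CPM. With the copies added to Eno1, the difference in the Eno4 over Eno1 log2 ratio was -0.13 (exact permutation p = 0.114). Gapdhs also shares 162 exonic bases with the antisense gene Tmem147os, and Eno4 shares 166 with Hspa12a on the other strand. The sources used here do not state whether the counting used strand, so reads there cannot be told apart.

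The genes whose log2 CPM ran most like a germ cell isozyme over the 8 libraries were searched among 9648 genes with a mean of at least 10 CPM. For Gapdhs they were Tmem270, Ace and Lpin1 (Pearson r 0.998, 0.997 and 0.997). For Pgk2 they were Cabs1, Gstm5 and Rnf133 (0.999, 0.999 and 0.997). Ace averaged 559 ± 170 CPM in labelled knockouts and 554 ± 34.97 CPM in wild types (SD, n = 4 each). For Ldhc they were Lrrc27, Oaz3 and Ropn1 (0.997, 0.997 and 0.997). Oaz3, an antizyme of spermatids, and Ropn1, a fibrous sheath protein, are also in the elongating spermatid list used here. For Aldoart1 they were Ipo5, Mllt11 and Cdrt4 (0.998, 0.998 and 0.997), and for Eno4 they were Stn1, Cpa5 and Cypt1 (0.990, 0.988 and 0.988). These values rest on 8 libraries, of which labelled knockout 3 lies far from the rest, and are given as descriptions.

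The rest of the pathway was taken from a list of 28 other glycolytic genes, of which 24 were tested. By edgeR 0 of them passed the threshold (0.0183% of all tested genes did), 12 had a log2 fold change above 0, and their median was -0.01, against 0.01 over all tested genes. The smallest unadjusted p was 0.0695 in edgeR's test, for Aldoc, the aldolase of brain, with a log2 fold change of -0.46 (SE 0.23). Aldoc had 10.2, 9.22, 14.8 and 6.18 CPM in labelled knockouts, against 11.4, 13.1, 15.9 and 15.3 CPM in wild types, so 3 labelled knockouts were below all wild types.

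Among the 20 of these genes with a mean of at least 10 CPM, several were low in labelled knockout 3, as the germ cell isozymes were. Hk1, a hexokinase with a sperm form tied to the fibrous sheath, had 1702, 1380, 928 and 2048 CPM in labelled knockouts, against 1567, 1319, 1440 and 1533 CPM in wild types. Aldoart2, another aldolase retrogene, had 366, 266, 190 and 408 CPM in labelled knockouts, against 337, 275, 292 and 308 CPM in wild types. Relative to the wild-type mean, labelled knockout 3 was at -0.67 on the log2 scale for Aldoart2, -0.65 for Hk1, -0.64 for Gpi1 (glucose-6-phosphate isomerase), -0.58 for Tpi1 (triosephosphate isomerase), -0.45 for Bpgm (bisphosphoglycerate mutase), -0.31 for Pgam2 (a phosphoglycerate mutase) and -0.81 for Eno1b. The same genes were at 0.36 to 0.50 in labelled knockout 4. Others ran the opposite way, as Gapdh did. Pfkl, a phosphofructokinase common in liver, was at 0.67 in labelled knockout 3 and -0.41 in labelled knockout 4, Hk2 at 0.59 and -0.33, Eno3 at 0.49 and -0.29, Ldhb at 0.36 and -0.48, Adpgk at 0.22 and -0.48, and Pgam1 at 0.15 and -0.51. The log2 difference in labelled knockout 3 was between -0.20 and 0.05 for Pkm, Pfkm, Pfkp, Pfkfb2, Pfkfb3 and Pfkfb4. The score of the Sertoli list was -0.22, 0.02, 0.47 and -0.45 in the labelled knockouts, in their order, and between -0.09 and 0.11 in wild types. Leydig scores were -0.34, -0.31, 0.05 and -0.95, and between -0.06 and 0.06 in wild types. Ldhb is itself in the Leydig list used here. The part of these cell types in the levels of Gapdh, Pgk1, Pfkl, Hk2, Ldhb and Aldoc was not tested. In edgeR's test 0 of the 15 Sertoli, 12 Leydig, 14 round spermatid and 16 elongating spermatid markers tested were called. With 0.0183% of all tested genes called, a count of 0 in such lists does not show that cell content was alike.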

How the data were processed

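Per the labels' protocols, total RNA of adult mouse testis was taken up in TRIzol, cleared of DNA and prepared with a TruSeq RNA kit. The authors deposited raw counts per Ensembl gene, whole numbers with no normalization, in 8 columns, and 0 columns lacked a sample. Trimmomatic, STAR, featureCounts and DESeq2 are named with the builds GRCm39 and mm39, per the submitters' processing notes. The sources used here give no versions, no strand setting and no rule for reads matching several places.

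Genes passing filterByExpr (minimum count 10, minimum total 15) were scaled by TMM and compared by group alone with edgeR's quasi-likelihood test, adjusted by Benjamini-Hochberg over 21805 genes at a threshold of 0.05. Versions were R 4.3.3, edgeR 4.0.16 and limma 3.58.1. Scripts were tested on simulated data. Pair ratios used counts plus 0.5 in two-sided exact permutation tests (scipy 1.17.1), and shares have Clopper-Pearson intervals. Symbols and transcripts came from GENCODE M21 on GRCm38, a different build from that of the counts, and matched 52073 of 56748 identifiers, leaving 4675 without a symbol. Promoters came from RefSeq on GRCm38.p6, which lists none for Aldoart1. Copies were found with blastn 2.17.0. The Aldoa row is the identifier ENSMUSG00000030695. Alternatives were RLE scaling, other filters, DESeq2 1.42.0, limma-voom, a replicate block and leaving out each library, and the Aldoa identifier and the length scales were added after seeing the data.

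The text names all 10 members, Ak9, the other glycolytic genes with a mean of at least 10 CPM or past the threshold, and for each germ cell isozyme the 3 genes most like it that carry a regular symbol. Tmem147os, Hspa12a, Gm4735, Gpx5 and Cst11 were named after their values were seen. The members and the gene lists were chosen with earlier results of these data known.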

Additional observations from a re-analysis of the deposited data

Results flagged for a closer look

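In 4 of the 36 groups of 4 libraries examined, 1 library lay far from the other 3 by Dixon's 95% criterion, which chance meets in about 1 group in 20. Ldhc was at 2346 CPM in labelled knockout 3, against 3791 to 3968 CPM in the other labelled knockouts. The Eno1 pseudogene Gm4735 was at 29.4 CPM in labelled knockout 1, against 4.29 to 8.05 CPM in the other labelled knockouts. Gapdhs was at 926 CPM in wild type 2, against 1039 to 1048 CPM in the other wild types. The log2 ratio of Aldoart1 over Aldoa was -1.93 in wild type 4, against -1.83 to -1.82 in the other wild types.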

How the results depend on the processing

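Over 154 alternative values of the member fold changes, 0 passed the threshold, and the smallest edgeR adjusted p was 0.119, for Pgk2 without labelled knockout 3. Over 69 alternative values of the 5 log2 ratios, 10 changed sign. The smallest exact permutation p with all 8 libraries was 0.114, and without labelled knockout 3 it was 0.0571. The labels do not say whether the replicate numbers pair the samples. Same-numbered deviations correlated at 0.07, 0.04, -0.02 and 0.03, which cannot decide whether they do. The replicate block left 4 genes higher and 0 lower. Genes higher numbered 16 and lower 10 with no filter on low counts, and 23 and 23 with DESeq2. Leaving out each library in turn gave 3 to 23 higher and 0 to 24 lower: 9 and 24 without labelled knockout 1, 23 and 12 without labelled knockout 3, and 14 and 19 without labelled knockout 4. The small member fold changes did not keep their signs. Leaving out each library gave log2 fold changes of -0.18 to 0.16 for Gapdhs, -0.047 to 0.28 for Pgk2, -0.0058 to 0.21 for Ldhc, -0.053 to 0.26 for Aldoart1, -0.16 to 0.076 for Eno4, -0.068 to 0.035 for Aldoa, -0.068 to 0.072 for Eno1 and -0.0018 to 0.072 for the other Aldoa identifier, while Gapdh and Pgk1 stayed below 0 and Ldha above. The log2 ratio differences ran from -0.20 to 0.39 for Gapdhs over Gapdh, -0.050 to 0.49 for Pgk2 over Pgk1, -0.063 to 0.0095 for Ldhc over Ldha, -0.081 to 0.22 for Aldoart1 over Aldoa and -0.17 to 0.0029 for Eno4 over Eno1. Pgk2 was at -0.0059 with limma-voom, Eno1 at 0.00025 with RLE scaling and 0.00023 with DESeq2, and the Aldoart1 over Aldoa difference at -0.024 with the other Aldoa identifier; the cause was not tested. No sum over family members was run for the Gapdh and Pgk1 pairs, and none with copies for Aldoa, which has none. The share of pair counts from Gapdhs was 87.4% in labelled knockouts and 87.9% in wild types, and 40.1% and 38.7% per 1000 unshared windows. Counting errors of 0.01 to 0.08 on the log2 ratio set the limit of depth.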
